A study of Mus musculus with 3 samples.

Results

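The cathepsins and lysosomal genes that macrophages are known for were followed across the cell classes of the mouse lacrimal gland (LG), the gland that makes the watery part of tears. They were 10 of the 32285 genes in the count tables, taken by name: 7 cathepsins (*Ctsb*, *Ctsd*, *Ctsl*, *Ctss*, *Ctsz*, *Ctsk* and *Ctsh*), together with *Lgals3*, *Grn* and *Gpnmb*. The single-cell RNA-seq data came from 3 libraries of LGs from C57BL/6J mice at 2 months, 1 library from females and 2 from males, and each library pooled the 6 LGs of 3 animals. No animal can therefore be followed on its own. The female library was made at another core facility and on another day than the male libraries, so that a difference of sex cannot be told apart from that of core or day, and no test of sex was made. The glands were digested with enzymes and dead cells were removed before capture, and the labels name no treatment, allele or transgene.

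Cathepsins are proteases of the lysosome, the acidic compartment in which cells break down what they take up. Most of them, among them cathepsins B, L, S, K, H and Z, cut with a cysteine, and cathepsin D cuts with an aspartate. Macrophages (Mφ), which engulf dead cells and debris, hold many lysosomes, and their cathepsins also trim proteins for presentation on MHC class II. Transcription factors of the TFEB, TFE3 and MITF family switch on lysosomal genes through a short DNA word that contains CACGTG.

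After filtering, 7652 cells of the female library, 5295 of male library 1 and 5397 of male library 2 were kept, with median UMI (unique molecule) counts of 3254, 1885 and 1789 per cell. The kept cells of any pair of libraries shared 8 to 13 barcodes. Cells were clustered without the 10 genes and without the other lysosomal genes described here, and clusters were named from markers that hold none of them. There were 1362, 654 and 541 Mφ-like cells, where values in a row of 3 always stand for the female library first and then for male libraries 1 and 2. Fibroblast-like cells numbered 1679, 717 and 482, and epithelial-like cells of named classes 2171, 2454 and 2739. The level of *C1qa*, a complement gene that marks Mφ, was 4560.3, 4876 and 5180.4 in Mφ-like cells, 6.86, 3.53 and 23.4 in fibroblast-like cells and 14.1, 7.70 and 7.93 in epithelial-like cells. A level is the number of UMIs of a gene in 1000000 UMIs of its class and library, leaving out tear-product and mitochondrial genes, and is given as mean ± SD over libraries. Levels are compared for the same gene between classes only. Differences were tested with edgeR's quasi-likelihood test on UMIs summed per library and class, with each library as its own block and p-values adjusted by the method of Benjamini and Hochberg across every gene tested, and a gene was called at an adjusted p under 0.05. The scaling of this fit is set by the bulk of genes, so that a fold change can depart from the ratio of the levels. The classes were drawn from the same cells that were then summed. The only replicates were the libraries, which are pools of animals, so the p-values do not cover the spread between animals. The fit shares its estimate of spread across genes, so the SE and p-value of a gene are not its own spread between libraries. A very small p-value is therefore no measure of how alike the libraries were.

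All 10 genes are protein-coding, and their positions are given on GRCm38 from the GENCODE vM21 annotation. *Ctsb* lies at chr14:63122462-63145923 (+), *Ctsd* at chr7:142375911-142388038 (−), *Ctsl* at chr13:64359337-64370890 (−) and *Ctss* at chr3:95526786-95556403 (+). *Ctsk* lies next to *Ctss* at chr3:95499256-95509362 (+), *Ctsz* at chr2:174427493-174439039 (−) and *Ctsh* at chr9:90054152-90076089 (+). *Lgals3* lies at chr14:47367751-47386160 (+), *Grn* at chr11:102430315-102437048 (+) and *Gpnmb* at chr6:49036546-49070929 (+). Promoter sequences of 300 bases, 250 before and 50 after the start site, were taken from RefSeq (GRCm38.p6) and matched 8 of the 10 genes. They were searched on both strands for CACGTG, for the AP-1 word TGAGTCA, which reads as TGACTCA from the other strand, and for the PU.1 word GAGGAAGT, which reads as ACTTCCTC from the other strand, and no match overlapped another. CACGTG stood in 2 of the 8 promoters and in 7.15% of all 32851 promoters of this length, the AP-1 word in 1 of the 8 and in 5.20% of all, and the PU.1 word in 1 of the 8 and in 3.20% of all. The 4 promoters that hold a word are shown, and their genes differed in pattern over the classes. *Ctsd*, *Gpnmb* and *Ctss* had their highest mean level in Trem2-high Mφ. *Ctss* was nearly absent outside immune cells, and *Ctsl* was lowest in immune cells. Capitals mark the words, and each sequence is read along the strand of its gene, at chr7:142387778-142388077 (−) for *Ctsd*, chr13:64370471-64370770 (−) for *Ctsl*, chr3:95526536-95526835 (+) for *Ctss* and chr6:49036268-49036567 (+) for *Gpnmb*.
Ctsd: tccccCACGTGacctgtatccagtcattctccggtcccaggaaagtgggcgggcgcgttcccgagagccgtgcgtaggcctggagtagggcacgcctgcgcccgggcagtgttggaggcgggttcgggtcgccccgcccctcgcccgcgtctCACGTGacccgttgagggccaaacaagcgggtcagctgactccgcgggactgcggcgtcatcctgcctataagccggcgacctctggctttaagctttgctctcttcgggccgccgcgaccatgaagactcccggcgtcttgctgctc
Ctsl: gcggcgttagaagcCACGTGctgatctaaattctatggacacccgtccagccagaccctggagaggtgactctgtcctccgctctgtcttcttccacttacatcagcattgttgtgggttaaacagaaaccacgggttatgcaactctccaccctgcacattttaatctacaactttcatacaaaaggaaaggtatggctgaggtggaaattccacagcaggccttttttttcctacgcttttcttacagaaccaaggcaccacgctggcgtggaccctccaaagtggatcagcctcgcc
Ctss: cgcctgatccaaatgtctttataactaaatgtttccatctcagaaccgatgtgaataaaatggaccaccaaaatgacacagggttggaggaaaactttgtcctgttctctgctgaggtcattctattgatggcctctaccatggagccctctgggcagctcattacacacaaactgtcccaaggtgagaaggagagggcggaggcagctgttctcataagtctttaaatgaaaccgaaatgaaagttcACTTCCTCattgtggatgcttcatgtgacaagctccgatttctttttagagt
Gpnmb: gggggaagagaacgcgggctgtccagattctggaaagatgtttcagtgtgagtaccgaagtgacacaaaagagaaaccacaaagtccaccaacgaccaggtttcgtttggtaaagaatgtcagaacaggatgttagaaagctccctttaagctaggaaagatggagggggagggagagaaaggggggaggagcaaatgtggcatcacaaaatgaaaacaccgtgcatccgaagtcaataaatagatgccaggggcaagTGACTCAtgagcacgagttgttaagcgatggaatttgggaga
In *Ctsd*, CACGTG began at 245 and 98 bases before the RefSeq start site, and in *Ctsl* at 236 bases before it. For both genes this start site lies inside the GENCODE position given above, so the annotations differ on where the gene starts. By GENCODE, the *Ctsl* match and the nearer *Ctsd* match lie within the gene. A match is a run of letters, and whether a factor binds there was not measured.

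Summed over the 10 genes, the share of UMIs was highest in the Trem2-high Mφ subset, at 1.48%, 2.04% and 2.14%. It was 0.836%, 1.06% and 1.23% in all Mφ-like cells, 0.336%, 0.381% and 0.351% in fibroblast-like cells and 0.171%, 0.182% and 0.174% in epithelial-like cells. No library of the Mφ-like cells overlapped the fibroblast-like libraries, and none of these overlapped the epithelial-like libraries.

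**Figure D1:**
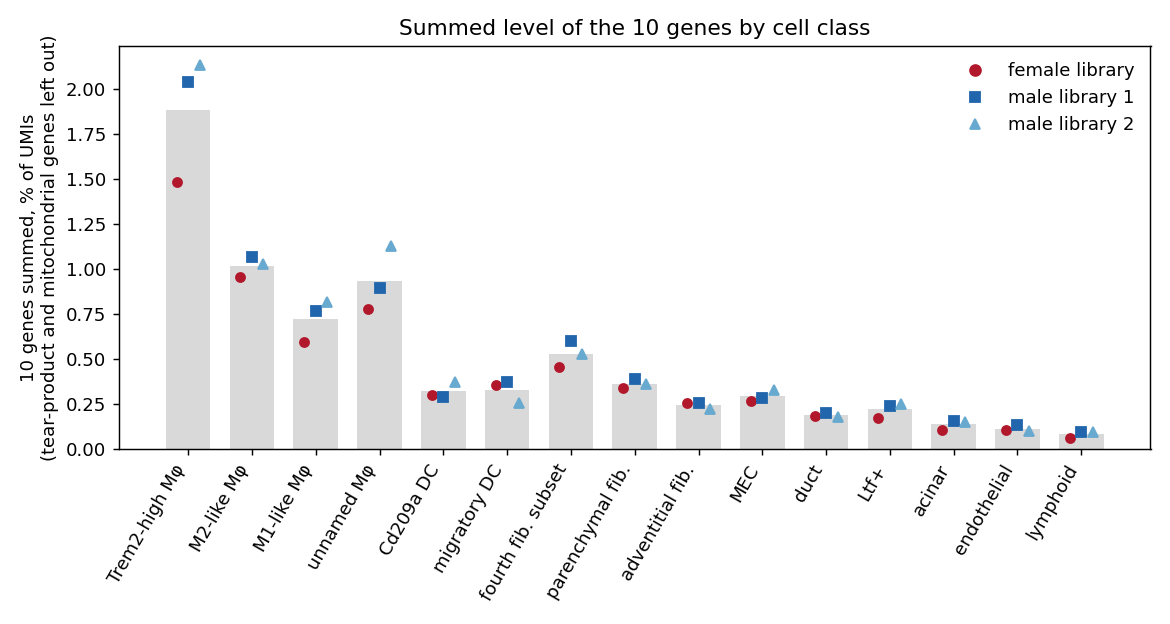
Summed level of the 10 genes in 15 cell classes, as a percent of UMIs with tear-product and mitochondrial genes left out (vertical axis). Bars are means of 3 libraries and points are libraries. Trem2-high Mφ stand highest at 1.89% and lymphoid-like cells lowest at 0.0805%.

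The 10 genes did not share a single pattern over the classes. *Ctsb*, *Ctsd*, *Ctss*, *Ctsz*, *Lgals3* and *Gpnmb* had their highest mean level of 19 classes in Trem2-high Mφ, *Grn* in M2-like resident Mφ and *Ctsh* in migratory dendritic-like cells. *Ctsl* and *Ctsk* had theirs in a small fibroblast subset marked by *Mfap4*, *Cilp*, *Tnc*, *Pdgfrl* and *Fxyd6*. Over the 19 classes, the log2 levels of *Ctss* and *Ctsl* went in opposite directions, with a Pearson r of −0.75, and those of *Lgals3* and *Ctsl* likewise, with r = −0.70. These values are descriptions over classes that share libraries.

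**Figure D2:**
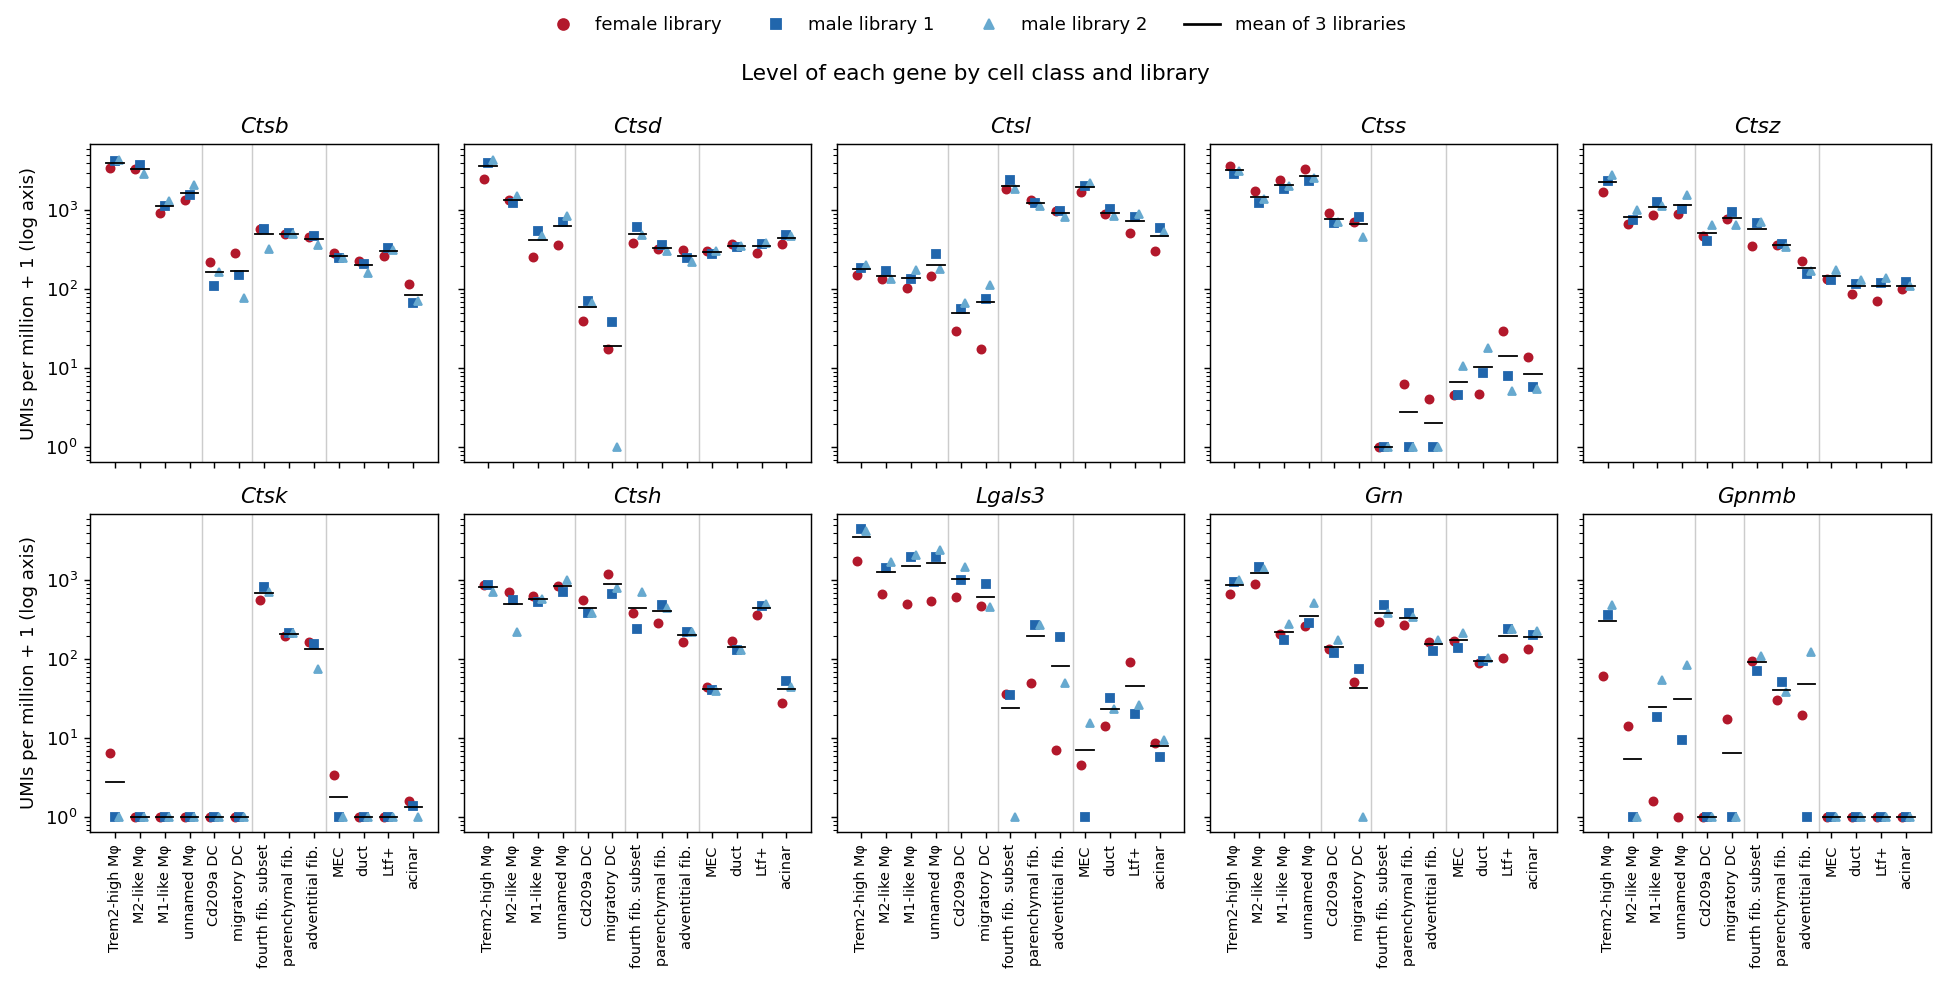
Level of each of the 10 genes in 13 cell classes, as UMIs plus 1 on a log axis. Each symbol is a library and each line the mean of 3 libraries. *Ctsk* sits in fibroblast subsets with its other values at or near 0, and *Ctss* and *Ctsl* are high on opposite sides of the plot.

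Macrophages were first compared with the epithelium, which makes the tear fluid. *Ctss*, which trims the invariant chain of MHC class II and works outside acid compartments too, stood at 2922, 2122 and 2374 in Mφ-like cells and at 8.82, 5.23 and 5.29 in epithelial-like cells. The log2 fold change was 8.99 ± 0.28 (SE, adjusted p = 3.6e-08), or 509.6-fold. *Lgals3*, the sugar-binding galectin-3, stood at 769, 2415 and 2692 against 17.3, 8.53 and 12.0, a log2 fold change of 7.49 ± 0.50 (adjusted p = 8.1e-07). Neither gene overlapped between the 2 classes in any library. *Ctsb*, the most widely used cysteine cathepsin, stood at 1612, 2021 and 2306 against 205, 133 and 121, a log2 fold change of 4.11 ± 0.27 (adjusted p = 7.1e-07). *Ctsz*, a carboxypeptidase that removes end residues, was higher by 4.01 ± 0.22 on the log2 scale, and *Ctsh*, an aminopeptidase, by 2.91 ± 0.22. *Ctsd* and *Grn* were the closest between the 2 lineages among the genes higher in Mφ-like cells. *Ctsd* stood at 782, 1307 and 1618 against 349, 446 and 445 (log2 fold change 1.92 ± 0.21, adjusted p = 2.6e-05). *Grn*, whose product progranulin is cut into granulins in the lysosome, stood at 336, 444 and 574 against 114, 198 and 222 (1.76 ± 0.22, adjusted p = 7.5e-05).

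*Gpnmb*, a membrane glycoprotein of lysosomes and melanosomes, had 47, 51 and 77 UMIs in Mφ-like cells and 0 in all epithelial-like libraries. Set against 3 UMIs over all epithelial-like cells, it was at least 160-fold higher in Mφ-like cells. *Ctsl*, a cathepsin used by most tissues, went the other way, at 125, 177 and 173 in Mφ-like cells against 793, 778 and 701 in epithelial-like cells, and was lower in Mφ-like cells by a factor of 3.69 (log2 fold change −1.88 ± 0.22, adjusted p = 4.0e-05). Part of the *Ctsl* UMIs of Mφ can be free RNA that entered their droplets. By an estimate from tear-product UMIs, free RNA accounted for up to 44.6% of the *Ctsl* UMIs in M1-like Mφ and up to 20.2% in Trem2-high Mφ, but for at most 0.152% of their *Ctss* UMIs. Scaled to total UMIs, which moved the median of all genes by 1.18, the value was −0.57 and missed the threshold (adjusted p = 0.28). *Ctsk* had 4 UMIs in Mφ-like cells and 4 in epithelial-like cells and passed no filter. In all, 8 of the 9 genes tested were called higher and 1 lower, where 47.4% of the 11014 genes tested were called in either direction. Genes such as *Gpnmb* passed the filter on low counts only through the class where they were high, so that these counts describe the genes and support nothing by themselves.

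**Figure D3:**
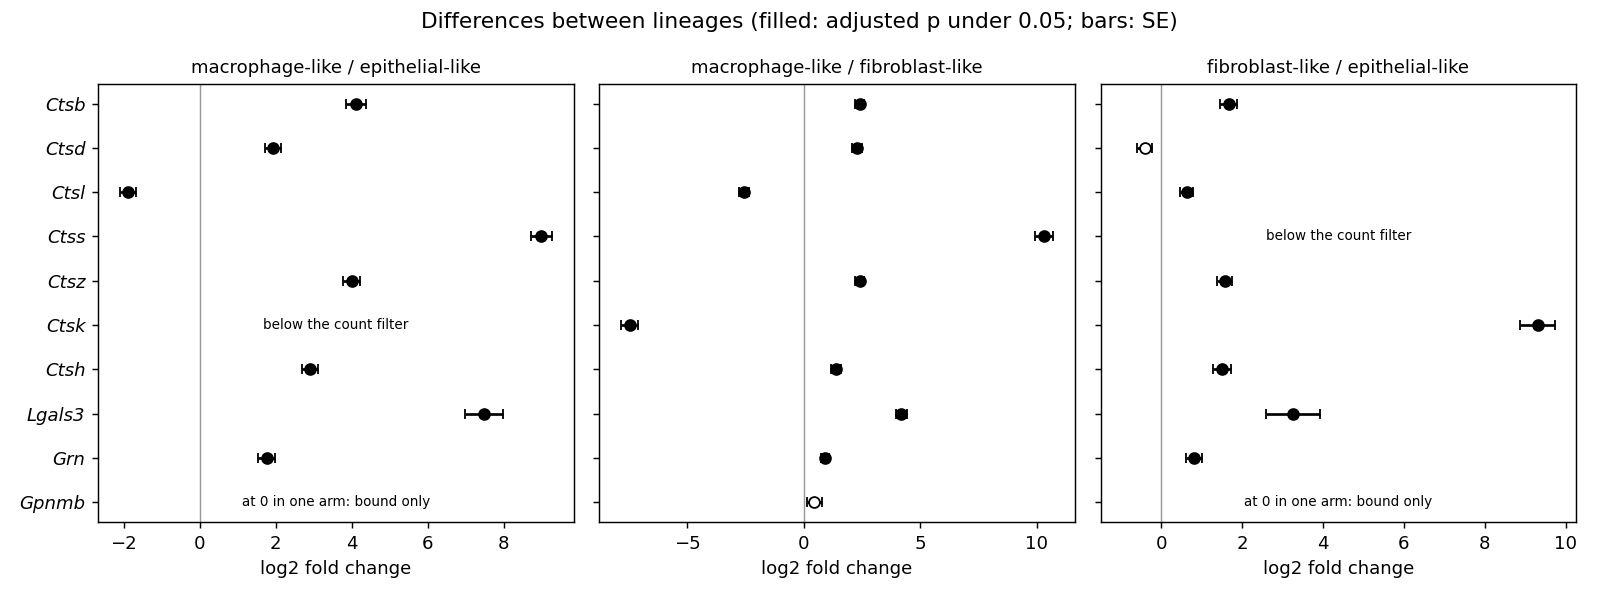
Log2 fold changes (horizontal axis) between Mφ-like, fibroblast-like and epithelial-like cells from edgeR's quasi-likelihood test, with SE as bars and filled points for an adjusted p under 0.05. *Ctsl* lies left of 0 in both comparisons that have Mφ first, *Ctsk* is at −7.48 against fibroblasts, and *Gpnmb* is open in that comparison.

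Fibroblasts, the other cells that turn over matrix in the gland, had higher levels of *Ctsk* and *Ctsl* than Mφ-like cells. *Ctsk*, the collagen-cutting protease known from osteoclasts, stood at 222, 263 and 216 in fibroblast-like cells, from 842, 149 and 74 UMIs, and at 1.10, 0 and 0 in Mφ-like cells. It was 178-fold higher in fibroblast-like cells (log2 fold change of Mφ over fibroblasts −7.48 ± 0.37, adjusted p = 2.9e-13). *Ctsl* stood at 1344, 1236 and 1157 and was 5.93-fold higher in fibroblast-like cells (−2.57 ± 0.20, adjusted p = 4.9e-10). No library overlapped between the classes for either gene.

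The other direction held for 7 genes, which were called higher in Mφ-like cells, and 59.0% of the 6833 genes tested were called in either direction. *Ctss* had 16, 0 and 0 UMIs in fibroblast-like cells and a log2 fold change of 10.31 ± 0.38 (adjusted p = 1.4e-14). In the female library the ratio of those 16 UMIs to the *C1qa*, *C1qb* and *C1qc* UMIs of fibroblasts was 0.286. It was 0.256 in Mφ-like cells and 0.316 in barcodes not called as cells. For *Ctsb* the same ratio was 34.7 in fibroblast-like cells, against 0.141 in Mφ-like cells and 0.824 in uncalled barcodes. The source of the *Ctss* and *Ctsb* UMIs in fibroblast-like cells was not tested. *Lgals3* was higher in Mφ-like cells by 4.19 ± 0.24 on the log2 scale, *Ctsb* and *Ctsz* by 2.39 ± 0.20 each, *Ctsd* by 2.27 ± 0.21 and *Ctsh* by 1.39 ± 0.21. *Grn* was closest among the genes called, at 336, 444 and 574 against 261, 371 and 327, with overlapping libraries but a higher value in Mφ-like cells of all 3 libraries (0.91 ± 0.19, adjusted p = 0.00025).

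*Gpnmb* was not called between Mφ-like and fibroblast-like cells, with a log2 fold change of 0.46 ± 0.33 (adjusted p = 0.24). Its level was 12.9 in Mφ-like against 35.6 in fibroblast-like cells of the female library, 84.5 against 56.5 in male library 1 and 169 against 64.3 in male library 2. Mφ-like cells were thus lower in the female library and higher in both male libraries. Without the female library, the log2 fold change was 1.35 and passed the threshold.

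Between fibroblasts and epithelium, 8 of 9 genes tested were called higher in fibroblast-like cells, where 36.8% of the 11908 genes tested were called in either direction. *Ctsk* led with a log2 fold change of 9.31 ± 0.43 (adjusted p = 1.5e-05), from 842, 149 and 74 UMIs against 3, 1 and 0. *Gpnmb* had 135, 32 and 22 UMIs in fibroblast-like cells and 0 in epithelial-like cells and was at least 173-fold higher, set against 3 UMIs over all epithelial-like cells. *Lgals3* was higher by 3.26 ± 0.66 on the log2 scale, *Ctsb* by 1.67 ± 0.22, *Ctsz* by 1.57 ± 0.18 and *Ctsh* by 1.49 ± 0.22. *Ctsl* (0.63 ± 0.16, adjusted p = 0.017) and *Grn* (0.81 ± 0.20, adjusted p = 0.017) differed least among the genes called. Without male library 1 both calls were lost, and without male library 2 that of *Ctsl*. *Ctsd* stood at 316, 367 and 301 in fibroblast-like and 349, 446 and 445 in epithelial-like cells and was not called (−0.41 ± 0.18, adjusted p = 0.12). Scaling to total UMIs, which counts the abundant tear transcripts of the epithelium, moved the median of all genes by 1.60 and gave *Ctsd* 1.26.

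Mφ were then set against the other phagocytes of the gland. Cd209a dendritic-like cells (35, 139 and 116 cells), antigen-presenting cells with few Mφ markers, had lower values for 8 of 8 genes tested, and 24.5% of the 3501 genes tested were called in either direction. *Ctsd* differed most, at 38.3, 71.0 and 65.8 in dendritic-like cells from 4, 9 and 6 UMIs, against 782, 1307 and 1618 in Mφ-like cells, a 22.0-fold difference (log2 fold change 4.46 ± 0.23, adjusted p = 2.4e-11). *Ctsb* followed at 220.5, 110.5 and 164 in dendritic-like cells (3.68 ± 0.21). *Ctss* stood at 920.3, 702 and 713 in dendritic-like cells and differed from Mφ-like cells by 1.76 ± 0.14. *Ctsz* differed by 1.53 ± 0.16, *Grn* by 1.75 ± 0.22, *Lgals3* by 0.93 ± 0.15 and *Ctsh* by 0.72 ± 0.17. *Lgals3* libraries overlapped, at 614, 1010.1 and 1491 in dendritic-like cells, and without male library 1 the call of *Ctsh* was lost. *Ctsl* differed by 1.77 ± 0.32, from 3, 7 and 6 UMIs in dendritic-like cells, where the estimate of free RNA reached 108% of its UMIs, and by 4.29 with the estimated free RNA subtracted. *Gpnmb* had 0 UMIs in all dendritic-like libraries, which leaves a difference of at least 3.99-fold.

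Monocyte-like cells, which circulate and can enter tissue to become Mφ, numbered 41 and 48 in male libraries 1 and 2. The female library held 6 and was left out of this comparison, which therefore rests on 2 libraries. Over all 3 libraries, the level of the Mφ marker *C1qa* was 372 ± 256 in monocyte-like cells. It was 4872 ± 310 in Mφ-like cells and 34.2 ± 13.2 in Cd209a dendritic-like cells. Whether Mφ or their RNA were mixed into the monocyte-like cells was not tested. *Ctsd* stood at 585 and 358 in monocyte-like cells against 1307 and 1618 in Mφ-like cells (log2 fold change 1.86 ± 0.23, adjusted p = 0.0023). *Ctsb* was higher in Mφ-like cells by 1.03 ± 0.16, *Ctsz* by 0.92 ± 0.15 and *Ctss* by 0.74 ± 0.14. These 4 of 9 genes tested were called, where 4.52% of the 2941 genes tested were called in either direction. *Lgals3* (0.22 ± 0.13), *Ctsh* (0.26 ± 0.20), *Ctsl* (−0.05 ± 0.41) and *Gpnmb* (0.36 ± 0.49) had overlapping libraries and were not called, and *Grn* had 0.99 ± 0.27 at an adjusted p of 0.08. *Gpnmb* rested on 3 and 5 UMIs in monocyte-like cells.

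Migratory dendritic-like cells, which carry antigen to lymph nodes, numbered 20, 36 and 39 and were not tested. They had the highest mean *Ctsh* level of 19 classes, 889 ± 266, whose libraries overlapped those of unnamed Mφ at 855 ± 141. Their *Ctsd* level was the lowest, 18.1 ± 18.9 from 2 UMIs.

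Among Mφ, 3 subsets could be named. Trem2-high Mφ (203, 97 and 102 cells) take their name from a lipid receptor. The study likened its own *Trem2*-high cluster to lipid-laden Mφ of atherosclerotic aorta, in part from *Lgals3*, *Ctsb* and *Ctsd*. In the Trem2-high Mφ named here, the summed level of 6 markers (*Trem2*, *Cd9*, *Spp1*, *Lpl*, *Fabp5* and *Fabp4*) was 1324, 2913 and 3675. *Trem2* alone stood at 617, 814 and 1050. *Trem2* and *Cd9* were higher than in M1-like, M2-like resident and unnamed Mφ of every library, but the other markers were not. *Lpl* stood at 296, 439 and 342 in Trem2-high Mφ and at 531, 318 and 1429 in M2-like resident Mφ. M2-like resident Mφ (36, 51 and 29 cells), a type held to dampen inflammation, were marked by *Mrc1*, *Pf4*, *F13a1* and *Folr2*. Of the other markers on their list, *Cd163* stood at 79.6, 196 and 179 and *Lyve1* at 0, 73.4 and 0. *Cbr2* stood at 146, 465 and 580, below its 1350, 734 and 868 in duct-like cells. M1-like Mφ (686, 337 and 280 cells), the inflammatory type, had *Il1b*, *Tnf*, *Nlrp3*, *Ccl4* and *Cd14* high, and their clusters were led by *Ifnb1*, *Ccl3*, *Ccl4* and *Cxcl2*. The remaining Mφ were cycling or unnamed. The study used *Lgals3*, *Ctsb*, *Ctsd* and *Grn* in describing these subsets from the same cells, so their direction here is no independent evidence. *Ctsd*, *Gpnmb*, *Ctsb* and *Lgals3* also stood among the 10 leading genes of the Trem2-high cluster although they took no part in the clustering. Each subset was compared with all other Mφ-like cells, so that the 3 comparisons share cells and are not independent.

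In Trem2-high Mφ, *Ctsd* had levels of 2527, 4012 and 4392, and in all other Mφ 340, 616 and 628. No library overlapped, and the log2 fold change was 2.66 ± 0.10 (adjusted p = 1.8e-160), or 6.33-fold. After each cell was thinned to 1000 UMIs, 61.6% of Trem2-high cells of the female library had a *Ctsd* UMI (95% exact binomial interval 54.5 to 68.3%), 78.1% of male library 1 and 77.2% of male library 2. In M1-like Mφ these shares were 13.6%, 15.4% and 16.8%, and in Cd209a dendritic-like cells, with median UMI counts of 3971, 1785 and 1483.5, they were 2.86%, 2.16% and 3.81%. Without thinning the shares were 87.7%, 88.7% and 85.3% in Trem2-high Mφ, whose median UMI counts were 4589, 2029 and 1795.5, and 34.1%, 20.5% and 21.8% in M1-like Mφ, whose median UMI counts were 3422, 1711 and 1374.5.

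*Gpnmb* had the largest fold change in this subset. Its levels were 61.0, 366 and 492 in Trem2-high Mφ, from 45, 45 and 59 UMIs, and 0.687, 12.5 and 53.5 in other Mφ, from 2, 6 and 18 UMIs (log2 fold change 4.12 ± 0.26, adjusted p = 4.3e-54). Of the 175 *Gpnmb* UMIs in Mφ-like cells, 149 lay in this subset. *Ctsb* stood at 3405, 4240 and 4325 against 1158, 1454 and 1586 (1.37 ± 0.09), *Grn* at 670, 944 and 1000 against 252, 316 and 422 (1.26 ± 0.13) and *Ctsz* at 1728, 2384 and 2825 against 885, 1165 and 1270 (0.89 ± 0.09). None of the 3 overlapped between the arms. *Lgals3* stood at 1734, 4525 and 4259 against 525, 1876 and 2133 (1.20 ± 0.09), so that the female value of the subset lay below the male values of the other Mφ, while each library had the subset higher.

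*Ctss* changed least among the genes called, at 3669, 2881 and 3150 against 2733, 1928 and 2097 (0.37 ± 0.08, adjusted p = 0.00021), and without male library 1 its call was lost (0.31, adjusted p = 0.22). *Ctsl* (0.16 ± 0.16) and *Ctsh* (0.18 ± 0.12) were not called. In all, 7 of 9 genes tested were called higher, where 12.9% of the 4844 genes tested were called in either direction. With arms set by whether a thinned cell held a *Trem2* UMI, which splits the Mφ-like cells without their subset clusters, 7 genes were called too, with log2 fold changes of 1.51 for *Ctsd*, 2.36 for *Gpnmb*, 0.75 for *Ctsb* and 0.67 for *Lgals3*. Without the library as a block, edgeR called 0 of these genes in this comparison and 0 in the M1-like comparison, while 5 and 4 had an unadjusted p under 0.05.

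**Figure D4:**
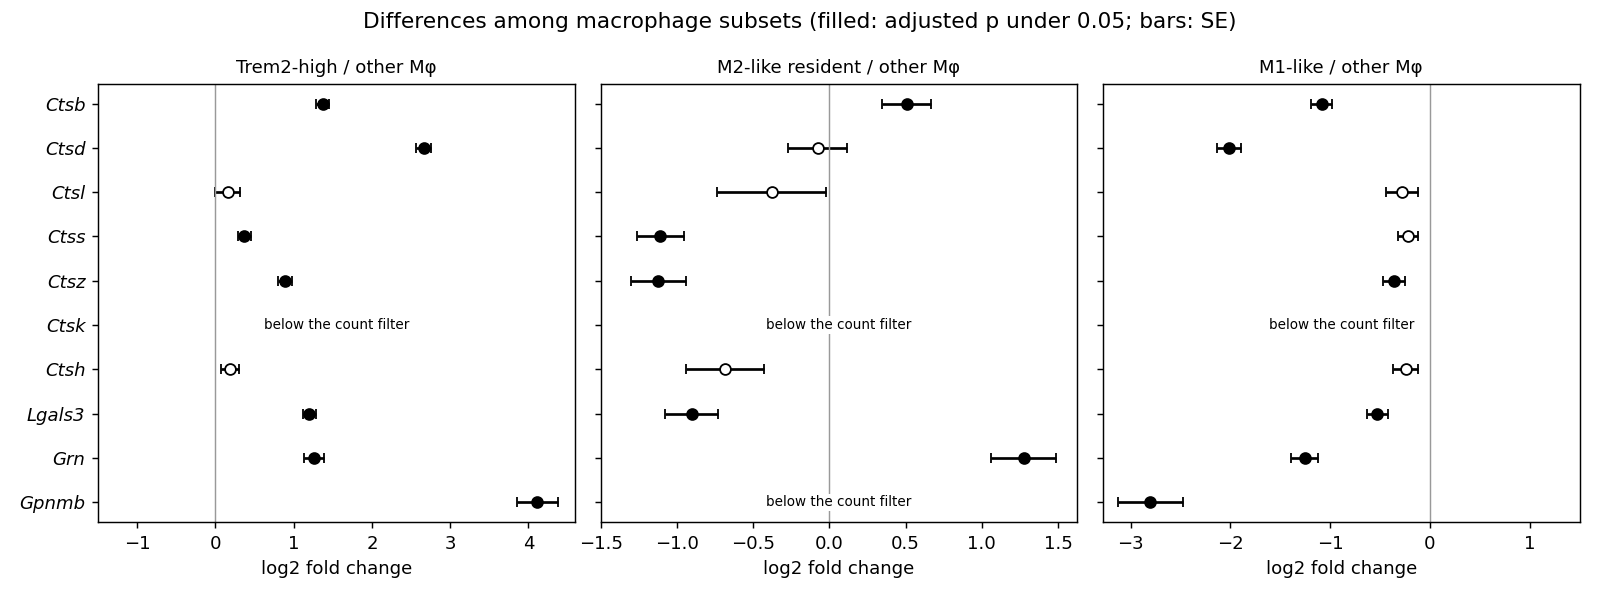
Log2 fold changes (horizontal axis) of Trem2-high, M2-like resident and M1-like Mφ against all other Mφ-like cells from edgeR's quasi-likelihood test, with SE as bars and filled points for an adjusted p under 0.05. *Ctsd* is at 2.66 in the first panel and −2.02 in the third, and *Grn* at 1.27 in the second.

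In M2-like resident Mφ, *Grn* reached its highest level of all classes, 889, 1468 and 1384 from 67, 60 and 31 UMIs, against 325, 370 and 533 in other Mφ (log2 fold change 1.27 ± 0.21, adjusted p = 0.0001). The libraries of this subset overlapped those of Trem2-high Mφ for *Grn*. *Ctsb* stood at 3357, 3769 and 2902 against 1575, 1894 and 2276 and was called narrowly (0.51 ± 0.16, adjusted p = 0.032). *Ctss* (−1.11 ± 0.15), *Ctsz* (−1.12 ± 0.18) and *Lgals3* (−0.90 ± 0.17) were lower, and *Ctsd* (−0.08 ± 0.20) was not called. *Ctss* stood at 1778, 1248 and 1384 against 2947, 2186 and 2425, with no overlap. These were 2 genes higher and 3 lower of 8 tested, where 15.7% of the 3447 genes tested were called in either direction. The call of *Ctsb* was lost under 9 of the alternatives, with log2 fold changes from 0.05 to 0.50. With arms set by an *Mrc1* UMI, where male library 2 had 8 such cells and was left out, edgeR called 0 genes and 4 had an unadjusted p under 0.05. *Gpnmb* had 1, 0 and 0 UMIs in this subset.

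M1-like Mφ had lower levels of 6 of 9 genes tested, where 17.0% of the 3708 genes tested were called in either direction. *Ctsd* stood at 257, 542 and 473 against 1234, 2006 and 2572 in other Mφ (−2.02 ± 0.12, adjusted p = 9.4e-58), *Ctsb* at 940, 1128 and 1312 against 2191, 2836 and 3135 (−1.08 ± 0.10) and *Grn* at 211, 174 and 280 against 444, 691 and 820 (−1.26 ± 0.14). None of these overlapped between the arms. *Gpnmb* rested on 1, 5 and 11 UMIs in M1-like Mφ (−2.80 ± 0.32), and *Lgals3* (−0.53 ± 0.10) and *Ctsz* (−0.36 ± 0.11) were lower by less. Without male library 2 the call of *Ctsz* was lost. *Ctss* (−0.22 ± 0.10), *Ctsl* (−0.28 ± 0.16) and *Ctsh* (−0.24 ± 0.12) were not called. Scaling to total UMIs, which moved the median of all genes by −0.26, called them too.

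Among fibroblasts, the small *Mfap4* subset (70, 40 and 26 cells) had the highest *Ctsk* level, 699 ± 136, against 197 to 214 in parenchymal-like fibroblasts. Outside the fibroblasts *Ctsk* was highest in mural-like cells, which wrap small vessels, at 86.3 ± 24.8 from 12 UMIs. The *Mfap4* subset also had the highest *Ctsl* level, 2051 ± 320.0, which overlapped that of myoepithelial-like cells at 1997 ± 255. Adventitial-like fibroblasts (112, 33 and 49 cells), which line vessels and capsules and were marked by *Pi16* and *Dpp4*, were compared with parenchymal-like fibroblasts (1116, 493 and 299 cells), which lie among the acini. *Lgals3* was lower in adventitial-like cells (−1.80 ± 0.43, adjusted p = 0.00055), from 2, 6 and 2 UMIs. *Ctsh* stood at 167, 220 and 221 against 287, 482 and 445 (−0.89 ± 0.28, adjusted p = 0.012), *Grn* at 167, 125 and 172 against 271, 385 and 345 (−0.89 ± 0.29, adjusted p = 0.017) and *Ctsz* at 229, 157 and 172 against 367, 380 and 345 (−0.82 ± 0.28, adjusted p = 0.025). *Ctsb*, *Ctsd*, *Ctsl* and *Ctsk* were not called. These were 4 of 8 genes tested, where 19.3% of the 3830 genes tested were called in either direction. Without male library 1, and also without male library 2, 1 of them stayed past the threshold, *Lgals3*. Adventitial-like cells of the male libraries held 4 to 9 UMIs of each of the other 3 genes.

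In the epithelium, *Ctsh* separated the classes most. Acinar-like cells, which in the comparisons include the Tfrc-high cells, make the tear proteins, duct-like cells line the tubes that carry them, and Ltf+-like cells, named for lactoferrin, carry markers of their own. *Ctsh* stood at 26.1, 53.1 and 42.1 in acinar-like cells, at 167, 129 and 131 in duct-like cells (log2 fold change 1.51 ± 0.24, adjusted p = 0.00085) and at 366, 471 and 496 in Ltf+-like cells (3.23 ± 0.17, adjusted p = 2.1e-07). No library overlapped between any of the 3 classes. *Ctsb* stood at 111, 65.8 and 70.3 in acinar-like cells, 231, 211 and 159 in duct-like cells (0.87 ± 0.22, adjusted p = 0.011) and 263, 334 and 319 in Ltf+-like cells (1.66 ± 0.24, adjusted p = 0.00032). *Ctsl* was higher than in acinar-like cells in duct-like cells (0.64 ± 0.17, adjusted p = 0.013) and in Ltf+-like cells (0.40 ± 0.14, adjusted p = 0.047). The call of *Ctsl* in Ltf+-like cells was lost under 8 of the alternatives, with log2 fold changes from 0.31 to 0.45. *Lgals3* was called in Ltf+-like cells, at 90.7, 19.1 and 25.0 against 7.22, 4.76 and 8.65 (2.22 ± 0.38), and not in duct-like cells (1.10 ± 0.53, adjusted p = 0.12). Ltf+-like cells numbered 73, 323 and 303, duct-like cells 991, 332 and 270 and acinar-like cells 771, 1479 and 1892. The level of the Mφ marker *C1qa* in Ltf+-like cells was 41.7, 12.1 and 14.6, and its bearing on their *Lgals3* was not tested.

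*Grn* was lower in duct-like than in acinar-like cells and *Ctsd* was lower in both duct-like and Ltf+-like cells, although the female library had *Ctsd* higher in duct-like cells. *Grn* stood at 129, 205 and 228 in acinar-like and 89.0, 93.7 and 102 in duct-like cells (−1.31 ± 0.17, adjusted p = 0.00033), with no overlap, and at 103, 244 and 239.8 in Ltf+-like cells, where it was not called (−0.23 ± 0.18). *Ctsd* stood at 355, 490 and 473 in acinar-like, 371, 344 and 358 in duct-like (−0.67 ± 0.15, adjusted p = 0.0067) and 285, 376 and 386 in Ltf+-like cells (−0.60 ± 0.15, adjusted p = 0.0081). In all, 5 of 8 genes tested were called between duct-like and acinar-like cells, where 45.8% of the 9840 genes tested were called in either direction, and 5 of 8 between Ltf+-like and acinar-like cells, where 39.4% of 9052 were. Both comparisons rest on the scaling. Scaled to total UMIs, the median of all genes moved by 2.59 and 2.09, and *Ctsd* became higher in duct-like (1.86) and Ltf+-like cells (1.501), as did *Grn* (1.25 and 1.87). Scaled to UMIs other than tear products, the *Ctsd* call was lost in both, at −0.27 and −0.33. Without either male library, 2 genes stayed called in the duct comparison and 3 in the Ltf+ comparison. *Gpnmb* had 0 UMIs in every epithelial class named, and *Ctss* in acinar-like cells rested on 23, 12 and 11 UMIs. Myoepithelial-like cells, which contract around the acini, stood apart with the highest *Ctsl* of the epithelium, 1997 ± 255 against 477 ± 159 in acinar-like cells, a difference that was not tested.

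The 78 other lysosomal genes were grouped into 5 lists by role. Of 32 hydrolases and activators, which digest lipids, sugars and proteins, all were tested between Mφ-like and epithelial-like cells, and 25 were called higher, 1 lower and 6 not called, where 47.4% of all genes tested were called in either direction. The list median was 2.69 on the log2 scale beside −0.18 over all genes. *Lyz2*, the Mφ lysozyme, stood at 2154 against 5.32 (9.02 ± 0.29), *Lgmn*, the asparaginyl protease that activates cathepsins, at 775 against 10.1 (6.65 ± 0.27) and *Npc2*, a carrier of cholesterol out of the lysosome, at 1607 against 79.7 (4.73 ± 0.25). *Smpd1*, the acid sphingomyelinase, was the gene called lower (−1.39 ± 0.39). Against fibroblast-like cells, 21 of 31 tested were called higher in Mφ-like cells and 3 lower, *Smpd1* (−2.17 ± 0.33), *Gaa* (−2.13 ± 0.20) and *Arsb* (−1.88 ± 0.28), with a list median of 1.38 beside 0.01 over all genes, of which 59.0% were called.

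Trem2-high Mφ had 16 of 28 hydrolases tested called higher and 0 lower, with a list median of 0.61 beside −0.00075 over all genes, of which 12.9% were called in either direction. M1-like Mφ had 0 called higher and 9 of 23 lower, where 17.0% of all genes tested were called in either direction. In Trem2-high Mφ the largest were *Glb1*, a galactosidase (1.31 ± 0.35), *Lyz2* (1.19 ± 0.08) and *Gaa*, the glycogen-cutting glucosidase (1.17 ± 0.29). M2-like resident Mφ had 3 higher and 3 lower of 26 tested, where 15.7% of all genes tested were called, with *Lyz2* higher (2.09 ± 0.18) and *Acp5*, the tartrate-resistant phosphatase, lower (−3.44 ± 0.53). Ltf+-like cells had 11 of 27 called higher than acinar-like cells and 1 lower, where 39.4% of all genes tested were called in either direction, led by *Lipa*, the acid lipase (4.57 ± 0.52, from a level of 0.711 in acinar-like cells), and *Lgmn* (3.64 ± 0.37).

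Of 18 lysosomal membrane and proton pump genes, 12 were called higher and 1 lower in Mφ-like than in epithelial-like cells, beside 47.4% of all genes called, with *Cd68* (8.52 ± 0.41), *Laptm5* (8.11 ± 0.36) and the metal transporter *Slc11a1* (7.23 ± 0.39) the largest, and *Laptm4a*, a small membrane protein, the gene lower (−1.22 ± 0.22). In Trem2-high Mφ 8 of 15 tested were called higher and 0 lower, beside 12.9% of all genes called, among them *Slc11a1* (1.01 ± 0.17), the pump subunit *Atp6v1a* (0.89 ± 0.16) and *Cd68* (0.88 ± 0.12). In M1-like Mφ 0 were higher and 4 of 15 lower, beside 17.0% of all genes called, among them *Lamp1*, the main coat protein of the lysosome (−0.67 ± 0.13). Of 7 other cathepsins, *Ctsa* and *Ctsc* were higher in Mφ-like cells than in both other lineages, and *Ctsf* was lower than in both. *Ctsa* stood at 298 in Mφ-like, 68.9 in fibroblast-like and 36.9 in epithelial-like cells. *Ctso* was lower in Mφ-like than in fibroblast-like cells (−1.84 ± 0.26) and not called against the epithelium.

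Of 10 cathepsin inhibitors, 3 were called higher and 0 lower of 5 tested in Mφ-like against epithelial-like cells, beside 47.4% of all genes called. In Mφ-like against fibroblast-like and against dendritic-like cells, and in Trem2-high against other Mφ, 2 were higher and 1 lower of 3 tested. Over all genes, 59.0%, 24.5% and 12.9% were called in these comparisons in either direction. In M1-like Mφ 1 was higher and 2 lower of 3, beside 17.0% of all genes called. *Cst3*, the secreted cystatin C, was higher in Mφ-like cells than in epithelial-like (4.94 ± 0.30) and fibroblast-like cells (2.77 ± 0.24), but lower in Trem2-high than in other Mφ (−0.46 ± 0.08, adjusted p = 1.5e-07), lower in M2-like resident Mφ (−0.65 ± 0.13) and lower in Mφ-like than in dendritic-like cells (−0.56 ± 0.14). *Cstb*, the inhibitor inside the cell, was higher in Trem2-high Mφ (1.02 ± 0.13) and lower in M1-like Mφ (−0.47 ± 0.13). Between duct-like and acinar-like cells *Cst3* stood at 1094 against 36.7 (4.74 ± 0.55). *Serpinb6a*, a serpin of the cytosol, was higher in Trem2-high Mφ (0.95 ± 0.18) and lower in M1-like Mφ (−1.05 ± 0.19), where *Cst3* was higher (0.31 ± 0.09). *Serpinb6a* was also higher in adventitial-like fibroblasts (1.66 ± 0.24), where *Cstb* was lower (−1.14 ± 0.29).

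Of 11 sorting and control genes, *Lrp1*, an uptake receptor, and *Mitf*, a factor of the TFEB family, were the 2 called of 7 tested in Trem2-high Mφ, both higher (1.69 ± 0.17 and 1.48 ± 0.34), where 12.9% of all genes tested were called. *M6pr*, the receptor that carries new hydrolases to the lysosome, was higher in Mφ-like than in fibroblast-like cells (2.38 ± 0.20), while its partner *Igf2r* was lower in Mφ-like cells than in both other lineages (−2.79 ± 0.38 against epithelium and −3.10 ± 0.40 against fibroblasts). *Sort1*, the sorting receptor for progranulin, was lower in Mφ-like than in epithelial-like cells (−2.96 ± 0.31) and stood at 135 in acinar-like against 25.9 in duct-like cells (−2.82 ± 0.22).

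Over the 19 classes, the 3 genes whose log2 levels were most like those of each of the 10 were found among 9090 genes, with Pearson's r as a description. *Ctss* was most like *Cd86*, *Arrb2* and *Aif1* (r = 0.99 each), *Ctsk* most like *Epha3*, *Shox2* and *Rian* (0.99 each) and *Ctsl* most like *Nfix* (0.96), *Rcn1* and *Sh3d19* (0.93 each). *Ctsb* was most like *Plin2* (0.94), *Lgals3* most like *Wdr91* (0.96) and *Ctsz* and *Ctsh* most like *Ftl1* (0.95 and 0.89). *Ctsd* (*Uap1l1*, 0.82), *Grn* (*Hexa*, 0.88) and *Gpnmb* (*Spp1*, 0.77) had the lowest top values. *Grn* was among the 3 genes most like *Ctsd*, *Ctsb* among those most like *Grn* and *Ctss* among those most like *Lgals3*.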

How the data were processed

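Cells of 3 LG libraries (10x Genomics) were analysed from whole-number UMI counts per gene and barcode, which the authors deposited after alignment to mm10 with Cell Ranger 6.1.2, per the submitters' processing notes, without normalization. Called barcodes with at least 500 UMIs, 200 genes and at most 15% mitochondrial UMIs were kept, and doublets scored by scanpy 1.11.5 were removed at 0.8% per 1000 cells (646, 287 and 315 barcodes). The kept cells held 55375501, 37754290 and 41316199 UMIs. Cells were clustered with Seurat 5.3.0 (Louvain, resolution 1) without 328 genes, among them the 10 genes, the 78 list genes and the tear-product genes, and clusters were named from markers. UMIs were summed per library and class, classes under 10 cells were left out, and sums were tested with edgeR 4.0.16 in R 4.3.3 (filterByExpr, TMM, quasi-likelihood, library as a block). The SE is the absolute log2 fold change divided by the square root of F. The pairing comes from the design, since both arms of a library come from the same suspension. The edgeR fit was also run on simulated sums for some of the comparisons. Their arms differed in a set of seeded genes only, so this did not cover a shift in make-up between classes. Free RNA was estimated from uncalled barcodes with 501 to 5000 UMIs (69181, 61807 and 57930 barcodes, 85.0 to 90.1% tear-product UMIs) and from tear-product UMIs outside the epithelium, where it came to 32.6%, 53.9% and 50.9% of the UMIs of Mφ-like cells. Binomial intervals are exact at 95%, the floor is 3 UMIs over a group, and both cover counting error only. Likeness was Pearson's r of log2 (level + 20) over classes found in all libraries, for genes with at least 300 UMIs.

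All 10 genes were described in every comparison, and of each list the genes named were among the up to 3 largest called changes in each direction. The genes and lists were chosen with earlier results of these data known. Chosen after the data were seen were the handling of clusters that the markers left unnamed, the monocyte-like cells (from resolution 2), the window for free RNA and the promoter words. Alternatives were other scalings, DESeq2 1.42.0, no filter, no block, each library left out, stricter cell limits, free RNA subtracted, resolution 2 and arms set by a marker UMI. A marker gene is not reported here.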

Additional observations from a re-analysis of the deposited data

Results flagged for a closer look

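For 6 values in 4 comparisons the female library moved one way and both male libraries the other, as log2 ratios of levels. These differences were not tested, and sex cannot be told apart from core and day. For *Gpnmb* in Mφ-like over fibroblast-like cells the ratio was −1.47 in the female library and 0.58 and 1.39 in the male libraries. For *Ctsd* in M2-like resident over other Mφ it was 0.80 against −0.07 and −0.10, and for *Ctsl* in the same comparison 0.0887 against −0.05 and −0.39, from 3 to 10 UMIs in M2-like resident Mφ. For *Ctsd* in duct-like over acinar-like cells it was 0.0617 against −0.51 and −0.40, and for *Ctss* there −1.80 against 0.71 and 1.98, from 2 to 10 UMIs in duct-like cells. For *Grn* in Ltf+-like over acinar-like cells it was −0.32 against 0.26 and 0.07.

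Signals also stood in data outside the comparisons. A cluster of epithelial cells that carried Mφ markers, which was left out of the epithelial classes, had a mean *Ctss* level of 254, against 7.40 in acinar-like cells without the Tfrc-high cells. Barcodes that were not called as cells held *Ctsl* at a mean of 431 and *Ctsd* at a mean of 228. Mast-like cells, which entered no comparison, had a mean *Ctsd* level of 1298, beside a level of the Mφ marker *C1qa* of 2024, 1879 and 1942, whose part in it was not tested.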

How the results depend on the processing

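Of 1216 values computed under alternatives, 80 lost a call, 22 gained one and 8 turned. The other 1106 kept their side of the threshold and, where called, their direction. A value counted as turned only if called in the main fit or under the alternative. A value called in neither could change sign and stay among the 1106. Without the library as a block, the genes of the 10 called numbered 0 of 9 for Trem2-high Mφ (smallest adjusted p 0.0642), 0 of 9 for M1-like Mφ (0.0988), 3 for M2-like resident Mφ and 1 for adventitial-like fibroblasts, and over all genes 0, 4, 229 and 433 were called in place of 627, 631, 540 and 739. With arms set by an *Mrc1* UMI, 0 of the 10 genes were called for M2-like resident Mφ (smallest adjusted p 0.318) and 39 of all genes. For adventitial-like fibroblasts, DESeq2 called 1, leaving out high doublet scores 2 and resolution 2 also 2. For Ltf+-like cells, a mitochondrial limit of 5% called 3. Total-UMI scaling called 8 in both the duct and the Ltf+ comparison and turned *Ctsd* between fibroblast-like and epithelial-like cells (1.26), *Ctsd* (1.86), *Ctss* (1.56), *Ctsz* (2.13) and *Grn* (1.25) in duct-like cells, and *Ctsd* (1.501), *Ctsz* (1.82) and *Grn* (1.87) in Ltf+-like cells. Total-UMI scaling counts the tear transcripts of acinar-like cells by construction, and for the other changes the cause was not tested.

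Leaving out each library in turn gave 9 genes called for Mφ against epithelium, 9 to 10 for Mφ against fibroblasts, 6 to 9 for fibroblasts against epithelium, 7 to 9 for Mφ against dendritic-like cells, 6 to 7 for Trem2-high, 4 to 7 for M2-like and 5 to 6 for M1-like Mφ, 1 to 4 for adventitial-like fibroblasts, 2 to 6 for duct-like and 3 to 5 for Ltf+-like cells. No leave-out was possible for monocyte-like cells, which rest on 2 libraries. Without the female library, *Ctsd* was called lower in M2-like resident Mφ (−0.49) and in fibroblast-like cells than in epithelium (−0.40).

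Over all genes, the number called moved by over 1.5 times without the filter (Mφ against fibroblasts 6297 in place of 4034, against monocyte-like cells 336 in place of 133, and 220 there without high doublet scores). DESeq2 called 488 in place of 859 against dendritic-like cells, where no block gave 528 and leaving out male library 1 gave 520. DESeq2 also called 289 for Trem2-high, 333 for M2-like and 321 for M1-like Mφ, 411 for adventitial-like fibroblasts and 1969 in place of 3569 for Ltf+-like cells. Arms set by a *Trem2* UMI gave 229. Total-UMI scaling gave 8788 in place of 4383 for fibroblasts against epithelium, 1212 for Trem2-high Mφ, 8925 in place of 4511 for duct-like and 8256 for Ltf+-like cells, where the 5% limit gave 2316. Without male library 1 the counts were 412 for Trem2-high, 350 for M1-like Mφ and 2014 for Ltf+-like cells, and without male library 2 they were 324 for M1-like Mφ and 2220 for Ltf+-like cells.

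The share of called genes that were higher also moved with the scaling, from the TMM fit to non-tear-UMI and total-UMI scaling. It went from 46.2% to 30.2% and 82.6% for Mφ against epithelium, from 50.1% to 29.6% and 32.4% for Mφ against fibroblasts, from 64.7% to 40.7% and 48.0% for monocyte-like cells, from 41.8% to 64.5% and 91.1% for Trem2-high, from 38.3% to 65.4% and 66.0% for M2-like, from 66.9% to 33.2% and 17.8% for M1-like Mφ, from 49.4% to 70.0% and 97.9% for duct-like and from 50.0% to 68.9% and 98.9% for Ltf+-like cells. For fibroblasts against epithelium it went from 50.7% to 92.8% with total UMIs.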

Other observations

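Mast-like cells (84, 36 and 74 cells) had *Ctsb* at 1123, 980.4 and 1482, *Ctss* at 1592, 1225.5 and 1201 and *Lgals3* at 333, 1716 and 894, all from few cells and beside the *C1qa* level given for them. Endothelial-like cells had *Ctsl* at 284, 395 and 256 and *Grn* at 153, 137 and 140.2, beside an estimated free RNA share of up to 29.4% of their *Ctsl* UMIs. Lymphoid-like cells had the lowest summed level of the 10 genes, with *Ctss* at 45.3, 81.1 and 64.8.

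*Lgals3* was lower in the female library than in both male libraries in M1-like Mφ, at 496 against 1999.5 and 2103, and in fibroblast-like cells, at 44.0 against 229.6 and 207. In epithelial-like cells it stood at 17.3 against 8.53 and 12.0, and in endothelial-like cells at 7.61 against 55.5 and 4.83. No test of these differences was made, and sex cannot be told apart from core and day.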
